A study of Mus musculus with 8 samples.

Results

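Translation factors are the soluble proteins that bring ribosomes to messenger RNA and move them along it. They were taken here as every gene symbol starting with Eif1 to Eif6 or with Eef1 or Eef2, without the eIF2 kinases (Eif2ak genes) and without the X- and Y-linked pair Eif2s3x and Eif2s3y. The rule gave 58 of the 24421 symbols in the deposited tables. The data are RNA sequencing counts of naive CD4+ T cells that were purified from C57BL/6 spleen with a kit, from mice aged 6 to 8 weeks that the labels give as male. The 4 libraries titled E1KO stand for mice whose floxed Pcbp1 alleles are cut by a Cre recombinase under the Cd4 promoter (Pcbp1fl/flCd4-Cre), and the 4 titled E1WT for the wild type. The genotype field writes the wild type as Pcbp1+/+Cd4-Cre, so the controls would carry the Cre too, while the design text says wild type only. Cd4-Cre is active from thymic development on, so it acts in CD8+ as well as CD4+ T cells and before the naive stage.

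Initiation begins when eIF2 brings the initiator tRNA to the small ribosomal subunit, which eIF1, eIF1A, eIF3 and eIF5 hold in a scanning state. The cap-binding complex eIF4F, made of eIF4E, eIF4G and the helicase eIF4A, loads that subunit onto the mRNA, and the 4E-binding proteins block eIF4E when mTORC1 is inactive. Elongation then needs eEF1A to deliver aminoacyl-tRNAs and eEF2 to move the ribosome by a codon. Naive T cells are small resting cells with low protein synthesis, which increases strongly after activation. PCBP1, also called hnRNP E1, binds C-rich RNA, is known to silence some mRNAs at the level of translation, and has been described to contact eEF1A1 in epithelial cells.

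Library labels contradict one another: the genotype field gives the opposite of the title in all 8 samples. Libraries were therefore named by title. Pcbp1 was low in the E1KO and high in the E1WT libraries, at 39.7 ± 1.57 CPM in E1KO and 224 ± 16.3 CPM in E1WT libraries (CPM is the count scaled to the library's gene total after TMM scaling; errors of CPM are SDs, n = 4 each), so the counts go with the titles. The label "male" was checked as well. Xist, the X-inactivation RNA that female cells make, had 397 ± 30.9 CPM in E1KO libraries and 1.51 ± 1.09 CPM in E1WT libraries, and the Y-linked gene Ddx3y had 54.3 ± 2.66 CPM in E1KO and 108 ± 5.40 CPM in E1WT libraries. Every single E1KO library held both RNAs, with Xist at 365 to 426 CPM and Ddx3y at 52.0 to 57.5 CPM. The sex makeup of the libraries and the title therefore cannot be told apart. Libraries held 28264655 to 36738202 gene counts, and replicates differed beyond sampling noise in every pair of the same title (chi-square per degree of freedom 3.998 to 64.8). The labels say "quadruplicate" without naming animals, so a library need not be a single mouse. The p-values hence refer to the scatter of these libraries, part of which could be technical. Markers of other cell types were present in all libraries. The summed level of 12 monocyte and macrophage markers was 152 to 162 CPM in E1KO and 73.9 to 76.7 CPM in E1WT libraries, that of 11 erythroid markers was 175 to 215 CPM in E1KO and 65.1 to 89.1 CPM in E1WT libraries with Hba-a1, Hba-a2, Hbb-bs and Hbb-bt listed at 0, and that of naive CD4+ T cell markers was 5442 to 5638 CPM in E1KO and 6244 to 6318 CPM in E1WT libraries. In these bulk samples fewer cells of a type and less RNA per cell cannot be told apart.

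Of the translation factor genes a minority passed the test, mostly with small folds, and nearly all of those were higher in E1KO libraries. Of the 58 genes, 55 had enough counts to be tested, and 10 of them (18.2%) were higher and 1 (1.82%) was lower in E1KO libraries at an adjusted p under 0.05 in the edgeR quasi-likelihood test over all 13333 tested genes. Across all tested genes, 12.2% were called higher and 11.1% lower. The 11 called genes were 20% of the 55, with a split of 10 against 1 where all genes gave 1623 against 1485. With DESeq2 size factors in place of TMM the split was 10 against 3. The genes that rose were Eif4ebp1, Eef2k, Eif4e3, Eif4e, Eif2b5, Eif3f, Eif4a1, Eif2s2, Eif1a and Eif4h, in order of fold, and the gene that fell was Eif4g3. The other 44 tested genes did not pass, with log2 folds of -0.48 to 0.26.

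The size of the differences was narrow. The median log2 fold (E1KO over E1WT) was 0.08 over the 55 factor genes and 0.01 over all tested genes, and 40 factor genes had a positive value and 15 a negative one. Of the 11 called factor genes, 10 had an absolute log2 fold under 0.5, against 1597 of the 3108 called genes in the whole table (51.4%). Those 3108 genes were not matched to the factor genes by level. The CPM ranges of the titles did not overlap for 12 factor genes on the higher side (21.8%) and 4 on the lower side (7.27%), against 13.9% and 12.1% of all tested genes. Leaving out single libraries moved the count of rises: it was 6 without E1KO 2, E1KO 4, E1WT 1 or E1WT 3 in turn. The count of falls was 2 without E1KO 4 or E1WT 4 and 3 without E1WT 2. Removing the exon-length trend of each library gave a median log2 fold of 0.05.

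**Figure D1:**
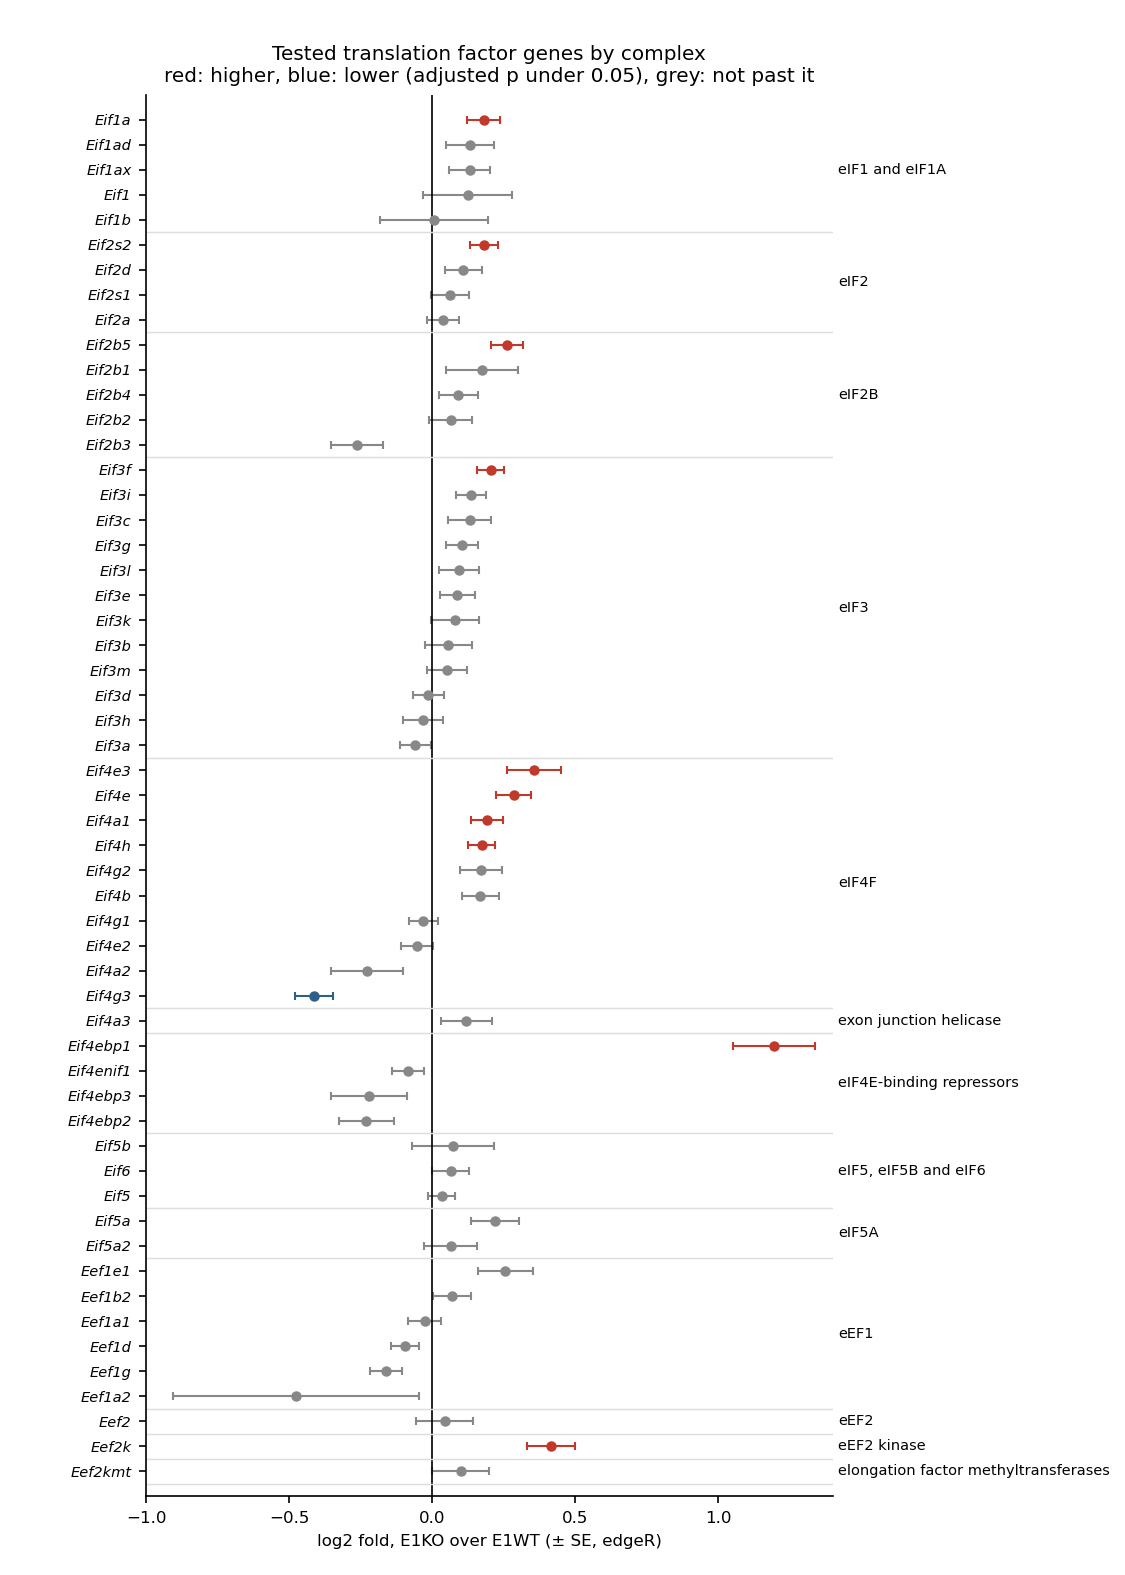
Log2 fold with its standard error (E1KO over E1WT, edgeR) for the 55 tested translation factor genes, grouped by complex; red marks genes called higher, blue lower and grey neither. Eif4ebp1 lies far to the right at 1.20, Eif4g3 to the left at -0.41, and the other 9 called genes lie between 0.17 and 0.42.

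Levels of the factors spanned a wide range when set per length, as CPM per kilobase of exon (union of exons in GENCODE M21). Eef1a1 stood first at 6348 ± 379 in E1KO and 6464 ± 158 in E1WT libraries, and Eef2 second at 2529 ± 312 in E1KO and 2454 ± 285 in E1WT libraries. Both are elongation factors that every ribosome needs. Together Eef1a1 and Eef2 took 63.7% to 67.7% of the summed CPM of all factor genes in E1KO libraries and 64.9% to 68.2% in E1WT libraries. Next in order came Eef1g and Eef1b2 of the eEF1 exchange complex, at 372 ± 16.8 and 299 ± 19.5 per kilobase in E1KO and 416 ± 18.6 and 285 ± 19.3 in E1WT libraries. In E1WT libraries 10 genes reached 100 per kilobase, 32 lay between 10 and 100, and 13 were lower. The cap-binding protein gene Eif4e was a modest one on this scale, at 11.8 ± 0.76 in E1KO and 9.71 ± 0.34 in E1WT libraries. Lowest among the tested genes was Eef1a2, the isoform of muscle and neurons, at 0.28 per kilobase in E1KO and 0.39 in E1WT libraries. Eif3j1 and Eif3j2, near-identical copies of one subunit gene, were listed at 0 in all 8 libraries, and Eif4e1b, an oocyte form of eIF4E, had 1 count in all. A floor of 3 counts corresponds to 0.0825 to 0.108 CPM here. Reads that map to several places are held in a separate row of the tables, so the 0 of the Eif3j copies does not show that they were silent.

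**Figure D2:**
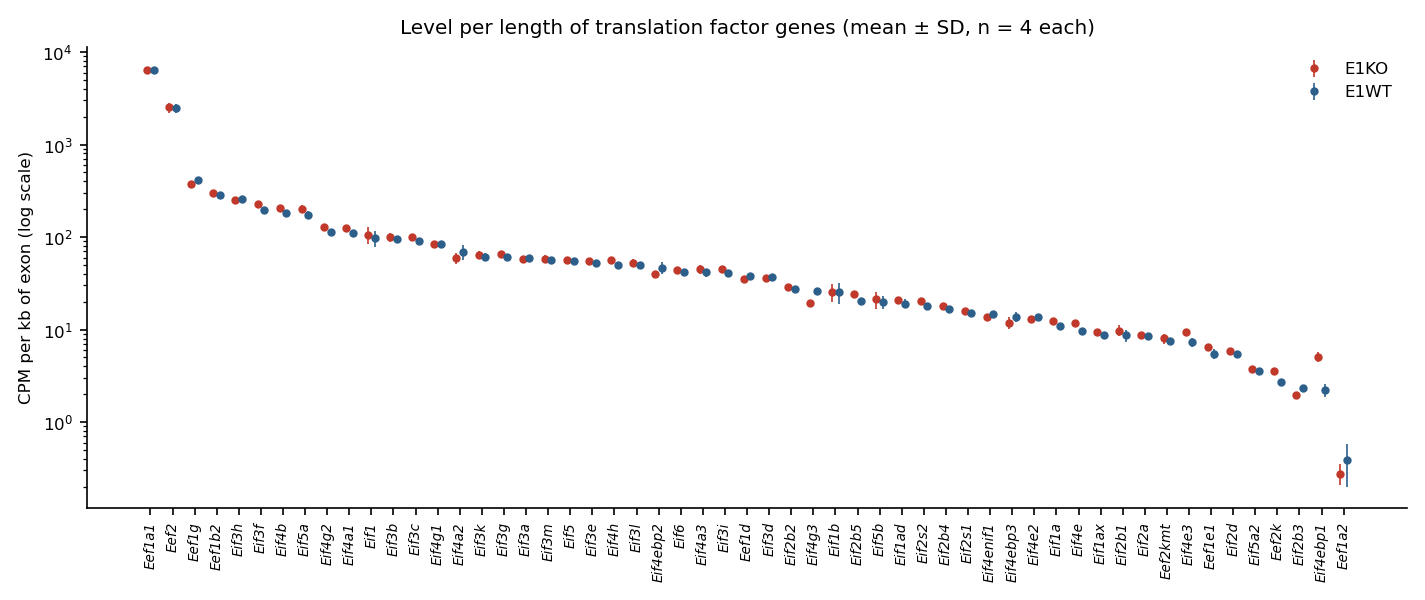
Level of each tested translation factor gene as CPM per kilobase of exon on a log axis, E1KO and E1WT, mean ± SD of 4 libraries each, ordered by level. Eef1a1 at 6348 and 6464 and Eef2 at 2529 and 2454 stand above all others, and Eef1a2 at 0.28 and 0.39 is lowest.

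The eIF4E-binding repressors held the gene with the largest fold of the whole group. Eif4ebp1 (chromosome 8, 27260329 to 27276674, plus strand, GRCm38) encodes the 4E-binding protein 4E-BP1, which sequesters eIF4E until mTORC1 phosphorylates it. It had 9.30, 10.7, 12.5 and 12.1 CPM in E1KO libraries 1 to 4, against 5.56, 5.25, 4.80 and 3.83 CPM in E1WT libraries 1 to 4. Every E1KO library was above every E1WT library, with a log2 fold of 1.20 ± 0.14 (SE; 2.29-fold) and an adjusted p of 0.000162. The call held in all 17 alternative settings, at log2 folds of 1.10 to 1.28. Its paralogs had negative log2 folds and did not pass the test. Eif4ebp2, the main 4E-BP transcript of these cells, had 257, 225, 207 and 233 CPM in E1KO and 270, 224, 272 and 314 CPM in E1WT libraries (log2 fold -0.23 ± 0.10, adjusted p = 0.110). Those ranges overlap, and without E1WT 2, the lowest E1WT library, the adjusted p was 0.0208. Eif4ebp3 had a log2 fold of -0.22 (adjusted p = 0.260), and Eif4enif1, which carries eIF4E into processing bodies and the nucleus, one of -0.08. Of the 4 repressor genes 1 was called higher (25%, against 12.2% of all tested genes).

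Within the family, Eif4ebp1 was a small share of the summed 4E-BP level in both groups. Per kilobase it was 5.07 in E1KO and 2.21 in E1WT libraries, and Eif4ebp2 was 39.8 in E1KO and 46.7 in E1WT libraries. It made up 9.04% ± 1.77 of the summed 4E-BP level per length in E1KO libraries and 3.61% ± 0.908 in E1WT libraries, with ranges of 6.71% to 10.8% in E1KO and 2.43% to 4.52% in E1WT that do not overlap. The sum itself was 52.4 to 63.1 per kilobase in E1KO and 52.9 to 71.7 in E1WT libraries, which overlap. Set against Eif4e, the summed 4E-BP level was 4.82 ± 0.691 times that of Eif4e in E1KO and 6.48 ± 1.02 times in E1WT libraries. These ratios ran from 4.11 to 5.77 in E1KO and 5.22 to 7.70 in E1WT libraries, so the groups overlapped.

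**Figure D3:**
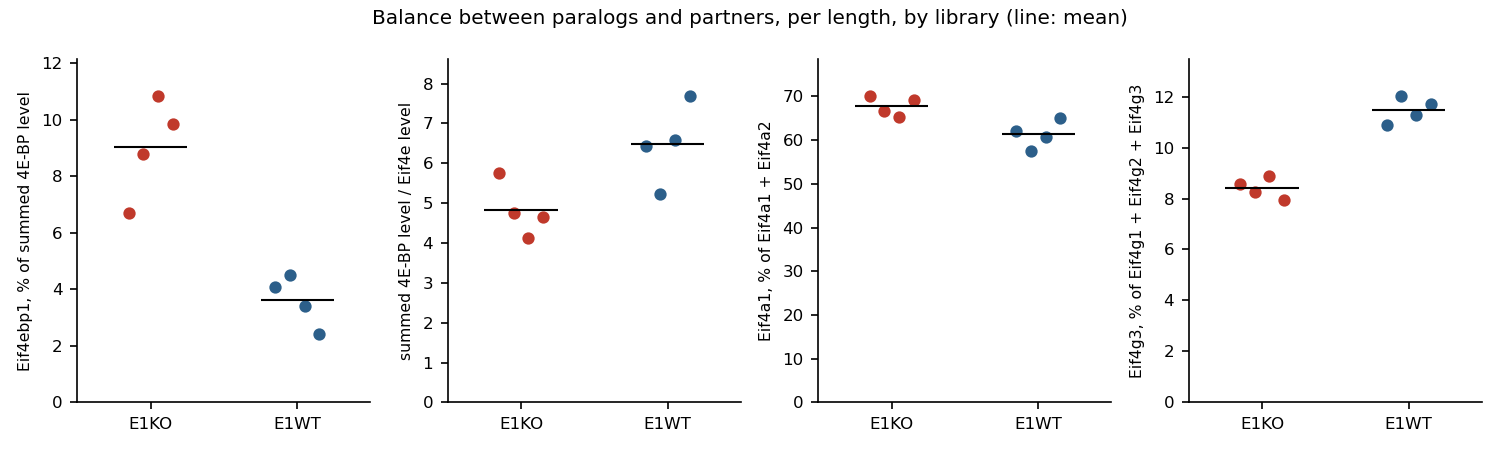
Shares and ratios of levels per kilobase in each library, E1KO left and E1WT right, with the mean as a line: Eif4ebp1 in the 4E-BP sum, the 4E-BP sum over Eif4e, Eif4a1 in the Eif4a1 and Eif4a2 sum, and Eif4g3 in the sum of the 3 Eif4g genes. The points of the titles separate for the Eif4ebp1, Eif4a1 and Eif4g3 shares and overlap for the 4E-BP sum over Eif4e.

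The group taken as eIF4F held 5 of the 11 called genes. Of its 10 tested genes 4 were higher and 1 was lower (40% and 10%, against 12.2% and 11.1% of all tested genes). Beside the subunits of the cap-binding complex, this group holds the cofactors Eif4b and Eif4h and the relatives Eif4e2, Eif4e3 and Eif4g2. Eif4h and Eif4e3 among the rises thus lie outside the complex itself. Eif4e (chromosome 3, 138526179 to 138559696, plus strand), the protein that grips the mRNA cap, had 65.7, 69.7, 76.5 and 72.4 CPM in E1KO libraries 1 to 4 and 58.1, 60.9, 58.3 and 56.0 CPM in E1WT libraries 1 to 4. The groups did not overlap, and the log2 fold of 0.28 ± 0.06 (1.22-fold, adjusted p = 0.00612) held in all 17 settings. Its exons overlap those of the microRNA gene Mir1956 by 61 bp. Eif4e3, a related cap-binding protein, had 22.1, 25.5, 23.1 and 22.9 CPM in E1KO and 19.02, 19.3, 19.3 and 15.3 CPM in E1WT libraries (log2 fold 0.36 ± 0.09, adjusted p = 0.0183). All E1KO libraries were above all E1WT libraries, but without E1KO 2, the highest, the adjusted p was 0.0594. Eif4e2, the cap-binding repressor 4EHP, had 97.7 ± 2.75 CPM in E1KO and 101 ± 5.46 CPM in E1WT libraries (log2 fold -0.05, adjusted p = 0.524).

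Of the helicase genes and their cofactors, Eif4a1 and Eif4h rose by smaller steps, and Eif4a2 and Eif4b did not pass. Eif4a1 (chromosome 11, 69666936 to 69672423, minus strand), the eIF4A helicase that unwinds mRNA leaders, had 510, 531, 564 and 561 CPM in E1KO and 476, 507, 460 and 454 CPM in E1WT libraries. The ranges lie next to each other without overlap, at a log2 fold of 0.19 ± 0.06 (adjusted p = 0.0324), and the call was lost at adjusted p of 0.0641 to 0.103 when E1KO 2, E1KO 3, E1KO 4, E1WT 1, E1WT 3 or E1WT 4 was left out. Eif4a2, its close paralog, had 267, 327, 370 and 307 CPM in E1KO and 359, 464, 366 and 301 CPM in E1WT libraries (log2 fold -0.23 ± 0.13, adjusted p = 0.218). Its exons overlap those of the protein-coding gene Rfc4 on the opposite strand by 194 bp. They also overlap the small nucleolar RNAs Snora81 and Snord2, which sit within Eif4a2. Eif4a1 made up 65.3% to 70.2% of the summed level of both per kilobase in E1KO libraries and 57.4% to 65.02% in E1WT libraries, which do not overlap. Eif4h, which stimulates the helicase, had 314 ± 5.72 CPM in E1KO and 278 ± 4.01 CPM in E1WT libraries (log2 fold 0.17 ± 0.05, adjusted p = 0.0186), and lost the call at adjusted p of 0.0524 to 0.0711 without E1KO 4, E1WT 1 or E1WT 3. Eif4b, the other cofactor, had a log2 fold of 0.17 ± 0.07 and did not pass (adjusted p = 0.0854).

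Eif4g3 was the only translation factor called lower as reported, while some alternative settings also called Eif2b3, Eef1g or Eif4ebp2 lower. Eif4g3 encodes eIF4GII, a paralog of the scaffold eIF4GI that bridges eIF4E, eIF4A and eIF3 (chromosome 4, 137993022 to 138208508, plus strand). The libraries had 235, 215, 209 and 200 CPM in E1KO and 267, 283, 278 and 314 CPM in E1WT, again with no overlap. The log2 fold was -0.41 ± 0.07 (adjusted p = 0.00119), and the call held in all 17 settings at -0.46 to -0.31. The main scaffold gene Eif4g1 had 608 ± 20.4 CPM in E1KO and 621 ± 17.5 CPM in E1WT libraries (log2 fold -0.03, adjusted p = 0.694), and Eif4g2, the DAP5 protein without an eIF4E site, had 1303 ± 109 CPM in E1KO and 1158 ± 87.4 CPM in E1WT libraries (log2 fold 0.17, adjusted p = 0.124). Per kilobase, Eif4g3 was 8.41% ± 0.403 of the 3 Eif4g genes in E1KO and 11.5% ± 0.5002 in E1WT libraries, while Eif4g2 was 53.9% to 56.9% in E1KO and 49.2% to 51.8% in E1WT libraries.

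**Figure D4:**
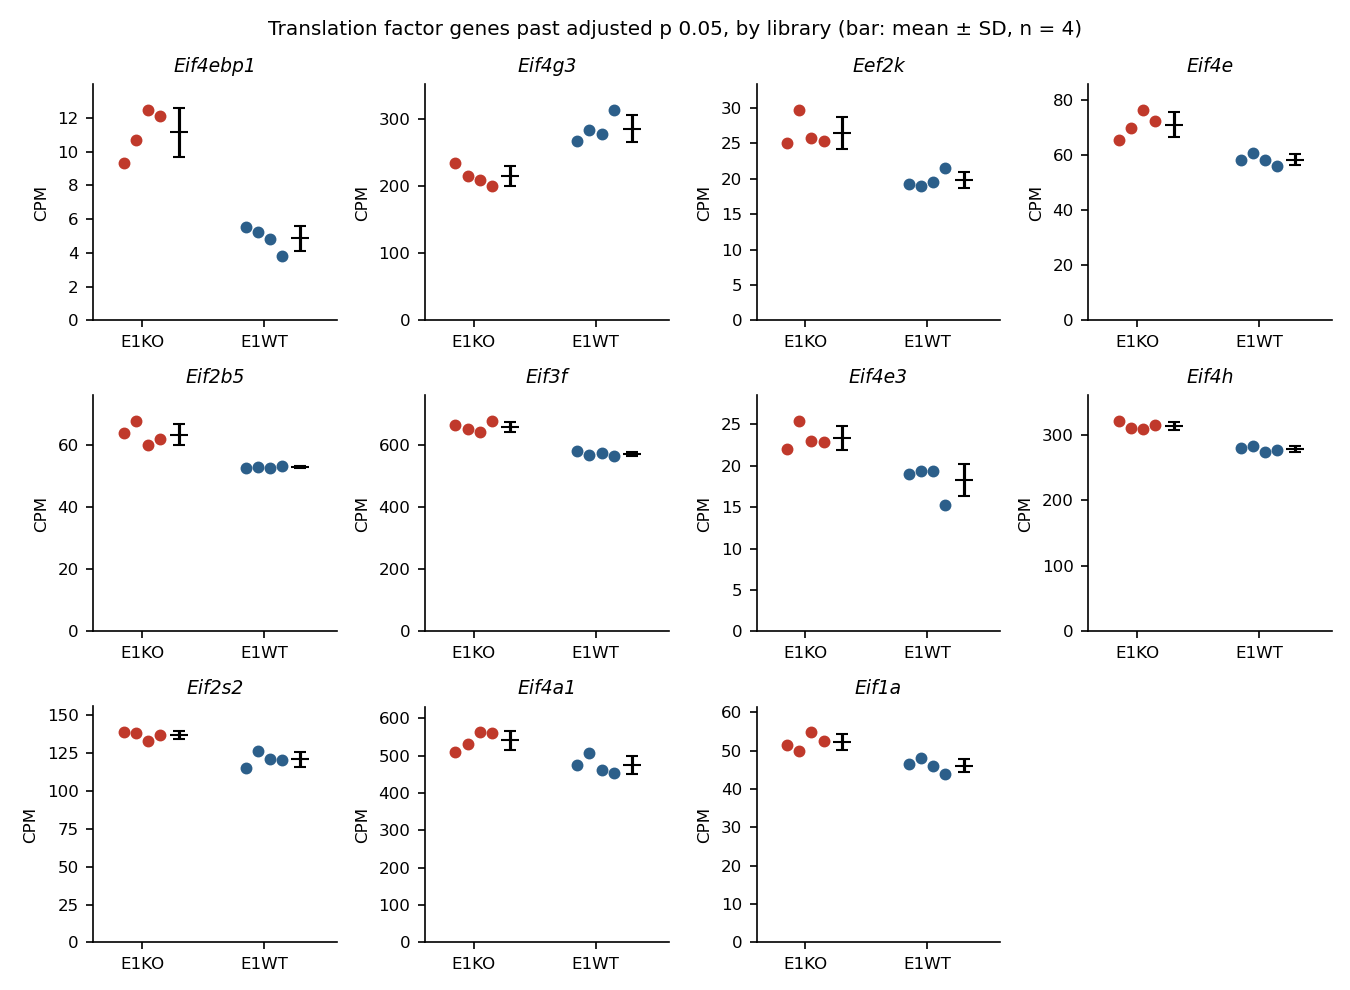
CPM of each of the 11 called translation factor genes in every library, E1KO left and E1WT right; points are libraries, and the black mark beside them is the mean ± SD (n = 4 each). Every panel starts at 0, and in all 11 the points of the titles do not overlap, with Eif4g3 lower in E1KO libraries (200 to 235 CPM) than in E1WT libraries (267 to 314 CPM).

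Promoter sequences are shown for the genes that rose because several of them share the E-box CACGTG, the site that MYC, MAX and other basic helix-loop-helix proteins are known to bind. The motif reads the same on both strands. Windows of 250 bases before to 50 after each RefSeq transcript start (GRCm38.p6) were at hand for 44 of the 58 genes and held the motif in 12 of them (27.3%), against 2187 of 27025 genes overall (8.09%) and 11.5% of the tested genes with a window. Among called factor genes it was in 5 of the 8 with a window, and in 7 of the 35 that were tested and not called. The remaining gene with a window, Eif3j1, was not tested and did not hold it. The other 14 genes were Eef1d, Eef1g, Eif1a, Eif2b3, Eif3e, Eif3h, Eif3i, Eif3j2, Eif4e1b, Eif4e3, Eif4ebp1, Eif4ebp3, Eif4g2 and Eif6. The called genes with it were Eif4e, Eif4h, Eif3f, Eef2k and Eif4a1, and the called genes without it were Eif2b5, Eif2s2 and Eif4g3. The called Eif1a, Eif4e3 and Eif4ebp1 had no window. The motif is shown because genes that rose share it, so the split by call is a description only. Over all tested genes it was in 11.99% of those called higher, close to the 11.5% of all tested genes. The ATF4-type site TGATGNAA, read on both strands and with no overlap to the E-box letters, was in the windows of 1 factor gene, Eef2k, and of 4.51% of all genes. Each line below gives 30 bases around the E-box, in capitals, on the gene's strand, 5′ to 3′. The first 6 come from called genes and the last 2 from the uncalled Eif4g1 and Eef2.
Eif4e, chr3:138527028-138527057, plus strand, at -228: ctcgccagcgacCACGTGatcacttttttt
Eif4e, chr3:138527192-138527221, plus strand, at -64: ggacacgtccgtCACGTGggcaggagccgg
Eif4h, chr5:134639488-134639517, minus strand, at -96: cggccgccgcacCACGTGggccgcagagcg
Eif3f, chr7:108934335-108934364, plus strand, at -68: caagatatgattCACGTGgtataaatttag
Eef2k, chr7:120842788-120842817, plus strand, at -31: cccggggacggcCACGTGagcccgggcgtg
Eif4a1, chr11:69672595-69672624, minus strand, at -189: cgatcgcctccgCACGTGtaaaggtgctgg
Eif4g1, chr16:20672661-20672690, plus strand, at -54: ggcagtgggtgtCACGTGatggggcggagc
Eef2, chr10:81176576-81176605, plus strand, at -43: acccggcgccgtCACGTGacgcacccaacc

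Eif4e has the E-box at 2 places in a single window, as do the uncalled Eif5a2 (at -142 and -117) and Eif4g1 (at -54 and 16). The 250 bases before the Eif4e start are given whole, with both sites in capitals (RefSeq, GRCm38.p6, chr3:138527018-138527267, plus strand). This start lies downstream of another annotated start of the gene.
Eif4e: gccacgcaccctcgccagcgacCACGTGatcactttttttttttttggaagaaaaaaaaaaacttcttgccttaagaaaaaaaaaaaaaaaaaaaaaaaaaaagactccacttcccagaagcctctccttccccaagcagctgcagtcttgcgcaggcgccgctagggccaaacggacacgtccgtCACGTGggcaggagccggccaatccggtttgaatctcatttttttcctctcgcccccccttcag
A match is a description of letters and not of binding. Myc had 72.6 ± 3.97 CPM in E1KO and 73.97 ± 7.05 CPM in E1WT libraries (log2 fold -0.03, adjusted p = 0.825), and Mycn 2.69 ± 1.14 CPM in E1KO and 1.21 ± 0.244 CPM in E1WT libraries (log2 fold 1.14 ± 0.32, adjusted p = 0.0235).

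The group taken as eIF2 and that of its exchange factor eIF2B held 1 called gene each, of 4 and 5 tested. Of all tested genes 12.2% were higher. The 4 are the subunit genes Eif2s1 and Eif2s2 and the genes Eif2a and Eif2d, which do not encode eIF2 subunits. Eif2s2 (chromosome 2, 154871410 to 154892935, minus strand), the beta subunit of the factor that carries the initiator tRNA, had 139, 138, 133 and 137 CPM in E1KO and 115, 126, 121 and 120 CPM in E1WT libraries. These do not overlap, with a log2 fold of 0.18 ± 0.05 (adjusted p = 0.0209), and the call was lost at adjusted p of 0.0563 to 0.0811 without E1KO 2, E1KO 4, E1WT 1 or E1WT 3. Eif2s1, the alpha subunit that stress kinases phosphorylate, had 78.4 ± 3.995 CPM in E1KO and 75.0 ± 5.63 CPM in E1WT libraries (log2 fold 0.06 ± 0.07, adjusted p = 0.527). The gamma subunit genes lie on the sex chromosomes and were outside the rule. Both passed the test, in opposite directions. Eif2s3x was higher in E1KO libraries (log2 fold 0.34 ± 0.10, adjusted p = 0.0245), and Eif2s3y was lower (log2 fold -1.02 ± 0.06, adjusted p = 1.69e-06). Their sum, Eif2s3x plus Eif2s3y, was 396 to 494 CPM in E1KO and 356 to 445 CPM in E1WT libraries, which overlap. Eif2a and Eif2d, which can deliver tRNA without eIF2, had log2 folds of 0.04 and 0.11 and were not called.

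Among the eIF2B subunits, which recharge eIF2 with GTP, 1 of 5 rose. Eif2b5 (chromosome 16, 20498817 to 20509323, plus strand) encodes the catalytic epsilon subunit. It had 63.6, 67.7, 59.8 and 61.8 CPM in E1KO and 52.7, 52.9, 52.4 and 53.0 CPM in E1WT libraries, whose values hardly vary. Its log2 fold was 0.26 ± 0.06 (adjusted p = 0.00624), and all 17 settings kept the call. Eif2b3, the gamma subunit of the same catalytic part, lay just outside the threshold and on the other side. It had 11.9, 12.9, 12.1 and 14.2 CPM in E1KO and 15.4, 14.3, 15.7 and 16.1 CPM in E1WT libraries (log2 fold -0.26 ± 0.09, adjusted p = 0.0554). The highest E1KO library lay just under the lowest E1WT library, and the gene passed without E1KO 4 (adjusted p = 0.0437) and without E1WT 2 (adjusted p = 0.0493). Eif2b3 also passed with DESeq2 size factors (adjusted p = 0.0467), the DESeq2 test (0.0215) and autosomal genes only (0.04915). The subunits Eif2b1, Eif2b2 and Eif2b4 of the remaining part had log2 folds of 0.17, 0.06 and 0.09, and none passed.

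Scanning and start-site factors gave 2 calls, both higher. Among the 5 tested genes whose symbols start with Eif1, Eif1ad included, 1 was called (20%, against 12.2% of all tested genes called higher). Eif3f (chromosome 7, 108934417 to 108942951, plus strand), a subunit of the eIF3 scaffold on the small ribosomal subunit, had 663, 651, 640 and 677 CPM in E1KO and 579, 568, 572 and 563 CPM in E1WT libraries. That is a log2 fold of 0.20 ± 0.05 with no overlap (adjusted p = 0.00916). It was the only eIF3 gene called among 12 tested (8.33%, against 12.2% of all tested genes called higher). The others had log2 folds of -0.06 to 0.13, 8 positive and 3 negative, with Eif3a, the large core subunit, at 499 ± 20.3 CPM in E1KO and 520 ± 24.3 CPM in E1WT libraries (log2 fold -0.06, adjusted p = 0.480). Eif1a on chromosome 18 encodes eIF1A, which keeps the small subunit scanning. It had 52.2 ± 2.06 CPM in E1KO and 46.0 ± 1.72 CPM in E1WT libraries (log2 fold 0.18 ± 0.06) and lay just inside the threshold at an adjusted p of 0.0431. Leaving out any single library other than E1WT 2 ended its call, at adjusted p of 0.0566 to 0.107. Its X-linked relative Eif1ax had a log2 fold of 0.13 ± 0.07 (adjusted p = 0.211), and reads the copies share may be split or missed.

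Factors that act at subunit joining were not called. Eif5, which triggers GTP hydrolysis on eIF2, had 387 ± 13.3 CPM in E1KO and 379 ± 4.39 CPM in E1WT libraries (log2 fold 0.03, adjusted p = 0.663). Eif5b had a log2 fold of 0.07 ± 0.14, and Eif6, which keeps the large subunit apart, had 118 ± 9.01 CPM in E1KO and 113 ± 5.53 CPM in E1WT libraries (log2 fold 0.06, adjusted p = 0.512). Eif4a3, a helicase of the exon junction complex despite its name, had 95.7 ± 10.1 CPM in E1KO and 88.0 ± 8.67 CPM in E1WT libraries (log2 fold 0.12, adjusted p = 0.362). Eif5a, which carries hypusine and eases ribosomes past difficult peptide bonds, had 422, 462, 526 and 510 CPM in E1KO and 419, 450, 422 and 358 CPM in E1WT libraries (log2 fold 0.22 ± 0.09, adjusted p = 0.0853). Its groups overlapped through E1KO 1, and without that library the adjusted p was 0.0275, and without E1WT 2 it was 0.0423. Eif5a2 had 18.6 ± 1.32 CPM in E1KO and 17.8 ± 1.69 CPM in E1WT libraries (log2 fold 0.07, adjusted p = 0.657), so Eif5a was 97.8% to 98.5% of the pair per kilobase in E1KO and 97.5% to 98.3% in E1WT libraries.

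In the elongation machinery the core factors did not pass the test and a regulator, the eEF2 kinase, rose. Eef1a1, which delivers aminoacyl-tRNAs, had 16718, 15675, 14562 and 16345 CPM in E1KO and 15965, 15673, 16215 and 16602 CPM in E1WT libraries, with 442334 to 607864 counts behind each value. The groups overlapped, and the log2 fold of -0.03 ± 0.06 (adjusted p = 0.784) had no stable sign, at 0.01 without E1KO 3. Eef1a1 has many processed pseudogenes, and reads shared with them are not in these counts. Eef2, the translocase, had 9789, 8268, 7276 and 8289 CPM in E1KO and 8259, 6990, 8068 and 9305 CPM in E1WT libraries (log2 fold 0.04 ± 0.10, adjusted p = 0.793). Its sign also turned, to -0.04 without E1KO 1 and -0.02 without E1WT 2.

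None of the 6 tested genes whose symbols start with Eef1 was called. Eef1g, the gamma subunit of the exchange complex, had 913, 952, 991 and 1011 CPM in E1KO and 1093, 1129, 1087 and 1014 CPM in E1WT libraries. All E1KO libraries were below all E1WT libraries, with E1KO 4 and E1WT 4 close to each other, and the log2 fold was -0.16 ± 0.06 (adjusted p = 0.0601). Without E1WT 4, the lowest E1WT library, the adjusted p was 0.0334, and with the exon-length trend removed it was 0.000681. Eef1g also passed with DESeq2 size factors (adjusted p = 0.03965), the DESeq2 test (0.00558), autosomal genes only (0.0442) and without E1KO 1 and E1WT 4 together (0.0349). Its partners gave log2 folds of -0.10 for Eef1d (adjusted p = 0.194) and 0.07 for Eef1b2 (757 ± 49.3 CPM in E1KO and 721 ± 48.9 CPM in E1WT libraries, adjusted p = 0.487). Eef1e1, a scaffold of the multi-synthetase complex, had 21.3 ± 1.122 CPM in E1KO and 17.8 ± 2.04 CPM in E1WT libraries (log2 fold 0.26 ± 0.10, adjusted p = 0.0757), and passed without E1WT 2 at 0.0486.

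Eef2k (chromosome 7, 120842831 to 120907450, plus strand) encodes the calcium- and energy-sensitive kinase that phosphorylates and inhibits eEF2. It had 24.999, 29.8, 25.8 and 25.3 CPM in E1KO and 19.3, 18.9, 19.6 and 21.6 CPM in E1WT libraries. Every E1KO library was above every E1WT library, at a log2 fold of 0.42 ± 0.08 (1.33-fold, adjusted p = 0.00443), and the call held in all 17 settings. The level of Eef2 per kilobase was 619 to 873 times that of Eef2k in E1KO and 823 to 962 times in E1WT libraries, so this ratio overlapped. The methyltransferase gene Eef2kmt, whose product modifies eEF2, had 21.5 ± 2.70 CPM in E1KO and 20.0 ± 1.17 CPM in E1WT libraries (log2 fold 0.10, adjusted p = 0.506).

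The factor genes also varied between libraries of the same title in a shared way. The coefficient of variation over 4 libraries had a median of 6.51% in E1KO and 6.71% in E1WT libraries. E1WT 4 held the lowest value of its title for 29 of the 55 genes and the highest for 19, and E1WT 2 the highest for 23. An example is the pair of Eif1 and Eif5b. Eif1, which guards start-site choice, had 168, 215, 279 and 226 CPM in E1KO and 210, 248.9, 202 and 153 CPM in E1WT libraries, and Eif5b had 262, 213, 158 and 190 CPM in E1KO and 174, 176, 193 and 241 CPM in E1WT libraries. The ratio of Eif5b to Eif1 CPM was 1.57 in E1KO 1 and 0.567 in E1KO 3, and 1.58 in E1WT 4 and 0.706 in E1WT 2. As a description over the 55 genes, which share library and depth, the deviation from the title's mean ranked with exon length at a Spearman rho of 0.382, 0.464, -0.447 and -0.410 in E1KO 1 to 4 and -0.409, -0.399, -0.263 and 0.562 in E1WT 1 to 4. All 13254 tested genes with a length gave 0.385, 0.164, -0.365 and -0.242 in E1KO and -0.040, -0.404, -0.010 and 0.389 in E1WT libraries. The part of transcript length in the results by title was tested only by removing this trend.

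**Figure D5:**
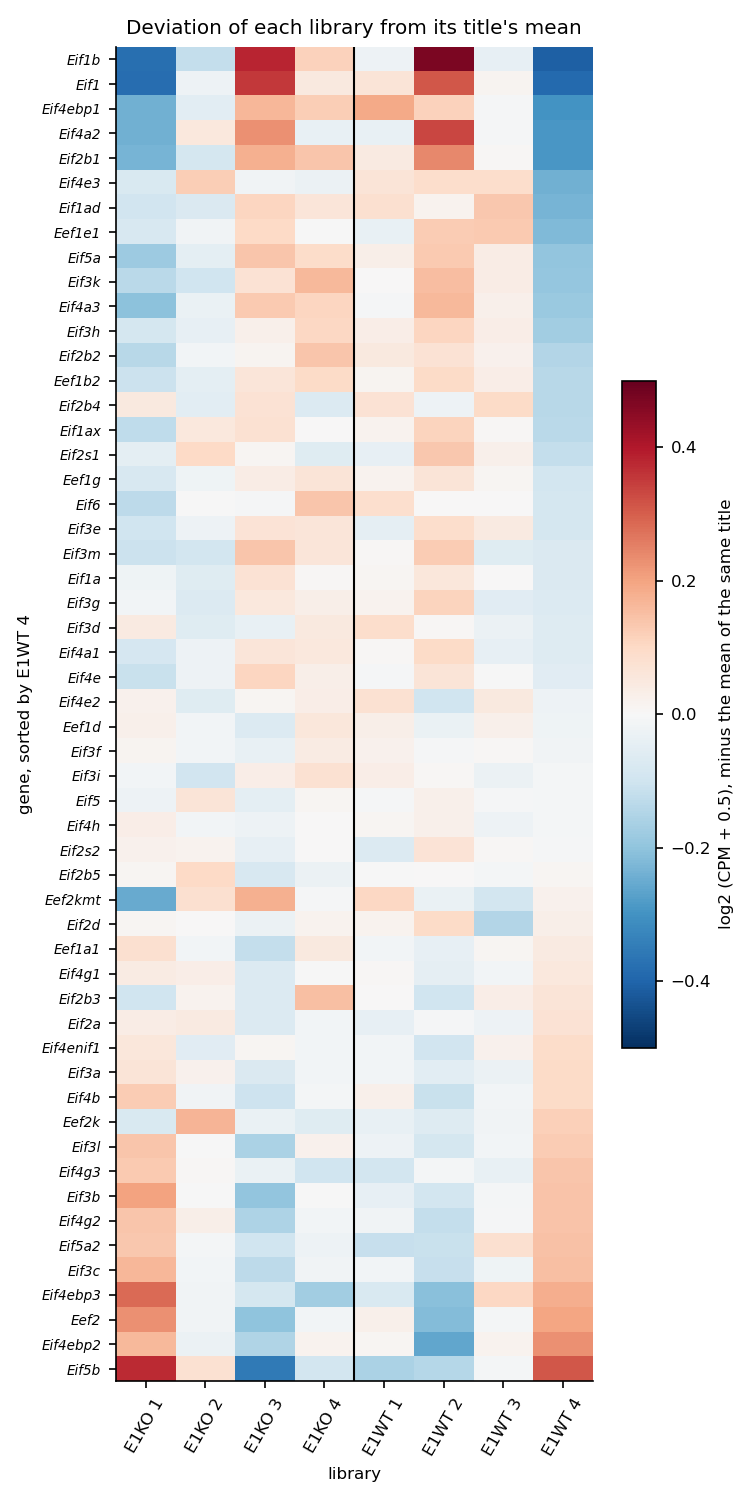
Deviation of each library from the mean of its own title, on the log2 (CPM + 0.5) scale, for 54 tested translation factor genes (Eef1a2 left out for its low level), E1KO left and E1WT right, sorted by E1WT 4. E1KO 1 and E1WT 4 share a pattern with Eif5b high and Eif1 low, and E1KO 3 and E1WT 2 show the reverse.

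Genes around the factors were taken from lists of their regulators and partners, which were chosen with earlier results of these data known. The ATF4 list holds targets of ATF4, the transcription factor that is translated when eIF2 is phosphorylated, and the gene Atf4 itself. Of the 18 tested genes on this list 8 rose (44.4%, against 12.2% of all tested genes) and 0 fell, with a median log2 fold of 0.26. Asns, asparagine synthetase, had 13.3 ± 1.28 CPM in E1KO and 3.58 ± 0.198 CPM in E1WT libraries (log2 fold 1.89 ± 0.11, adjusted p = 1.69e-06), and Pck2, the mitochondrial PEP carboxykinase, 64.9 ± 1.49 CPM in E1KO and 34.5 ± 1.47 CPM in E1WT libraries (log2 fold 0.91 ± 0.06, adjusted p = 1.89e-06). Phgdh, the first enzyme of serine synthesis, had 117 ± 5.57 CPM in E1KO and 89.3 ± 6.52 CPM in E1WT libraries (log2 fold 0.39 ± 0.06, adjusted p = 0.00118). Atf4 itself had 84.3 ± 16.5 CPM in E1KO and 70.1 ± 16.2 CPM in E1WT libraries (log2 fold 0.27, adjusted p = 0.283), and Ddit3, its stress-linked target CHOP, -0.38 (adjusted p = 0.0538).

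Of 9 tested eIF2 kinase and phosphatase genes, 2 fell (22.2%, against 11.1% of all tested genes) and 0 rose, with a median log2 fold of -0.18, and 1 of the 2 falls, that of Impact, was lost when single libraries were left out. Ppp1r15a, the GADD34 subunit that directs dephosphorylation of eIF2, had 24.99 ± 1.49 CPM in E1KO and 35.8 ± 5.56 CPM in E1WT libraries (log2 fold -0.52 ± 0.10, adjusted p = 0.00442). Impact, an inhibitor of the kinase activator GCN1, had 27.6 ± 4.09 CPM in E1KO and 35.9 ± 3.81 CPM in E1WT libraries (log2 fold -0.38 ± 0.11, adjusted p = 0.0306), and lost the call at adjusted p of 0.0648 to 0.0833 without E1KO 3, E1KO 4, E1WT 3 or E1WT 4. The called genes were thus a phosphatase subunit and an inhibitor, and none of the 4 kinases passed.

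Of 20 tested genes of mTORC1, S6 kinase and MNK regulation, 3 rose (15%) and 5 fell (25%), against 12.2% and 11.1% of all tested genes, with a median log2 fold of 0.00. Those that rose are known as brakes on mTOR signalling. Sesn2 had 16.2 ± 2.79 CPM in E1KO and 8.55 ± 1.33 CPM in E1WT libraries (log2 fold 0.93 ± 0.15, adjusted p = 0.00102), Ddit4 319 ± 30.7 CPM in E1KO and 221 ± 30.6 CPM in E1WT libraries (log2 fold 0.53 ± 0.10, adjusted p = 0.00278), and Deptor 6.10 ± 0.635 CPM in E1KO and 3.88 ± 0.454 CPM in E1WT libraries (log2 fold 0.65 ± 0.14, adjusted p = 0.00631). Sesn2 and Ddit4 also stand in the ATF4 list. Those that fell were Mtor, the kinase itself, at 74.4 ± 4.15 CPM in E1KO and 98.9 ± 8.04 CPM in E1WT libraries (log2 fold -0.41 ± 0.07, adjusted p = 0.00146), its partner Rptor, the inhibitor Tsc1, and the S6 kinases Rps6kb1 and Rps6kb2. The number called was 5 without E1KO 4.

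Among 21 tested poly(A)-binding proteins and accessories, 2 rose (9.52%) and 1 fell (4.76%), neither share above that of all tested genes (12.2% higher and 11.1% lower), with a median log2 fold of -0.01. Pabpc4, a cytoplasmic poly(A)-binding protein, had 193 ± 14.96 CPM in E1KO and 155 ± 7.88 CPM in E1WT libraries (log2 fold 0.31 ± 0.07, adjusted p = 0.00560), and Ddx6, a helicase of translational repression, 760 ± 33.4 CPM in E1KO and 936 ± 58.9 CPM in E1WT libraries (log2 fold -0.30 ± 0.06, adjusted p = 0.00460). Paip2b, an inhibitor of poly(A)-binding proteins, had 72.9 ± 0.497 CPM in E1KO and 63.9 ± 1.98 CPM in E1WT libraries (log2 fold 0.19 ± 0.05, adjusted p = 0.0171) and missed the threshold at 0.0516 to 0.0668 without E1KO 4, E1WT 1 or E1WT 3. The list of hypusine and diphthamide enzymes, which modify eIF5A and eEF2, also took in genes of polyamine synthesis. Of its 10 tested genes only Odc1 of polyamine synthesis was called (10%, against 12.2% of all tested genes called higher). Odc1 had 119 ± 7.28 CPM in E1KO and 98.8 ± 3.73 CPM in E1WT libraries (log2 fold 0.27 ± 0.06, adjusted p = 0.00636). None of the enzymes that modify eIF5A or eEF2 passed. Amd1 of that list is listed at 0 in all libraries. The count was 3 without E1KO 1 and 2 without E1WT 2.

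Of 11 tested termination and recycling factors, 1 was called higher (9.09%, against 12.2% of all tested genes). Gspt2, the minor eRF3 form, had 0.518 ± 0.140 CPM in E1KO and 0.133 ± 0.125 CPM in E1WT libraries, with E1WT 2 at 0 (log2 fold 1.98 ± 0.65, adjusted p = 0.0483). Leaving out any library other than E1KO 1 or E1WT 3 ended that call, at adjusted p of 0.0681 to 0.131. The 11 tested mitochondrial translation factors gave 1 rise and 1 fall, 9.09% each, against 12.2% and 11.1% of all tested genes. Tufm, the mitochondrial EF-Tu, rose (93.7 ± 7.51 CPM in E1KO and 79.3 ± 2.65 CPM in E1WT libraries, log2 fold 0.24 ± 0.06, adjusted p = 0.0188). Gfm2, which recycles mitochondrial ribosomes, fell (43.4 ± 1.08 CPM in E1KO and 49.6 ± 2.17 CPM in E1WT libraries, log2 fold -0.20 ± 0.06, adjusted p = 0.0303). Without E1KO 3 or E1KO 4 neither passed, at adjusted p of 0.0516 to 0.0791; Tufm also missed without E1WT 3 (0.0658), and Gfm2 without E1KO 2, E1WT 1, E1WT 2 or E1WT 4 (0.0623 to 0.0835).

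Genes of a cell cycle list, also chosen with earlier results known, were mostly higher in E1KO libraries beside these results. Of 20 cell cycle genes 14 rose (70%, against 12.2% of all tested genes) and 0 fell, with a median log2 fold of 0.48 and a summed level of 1494 to 1566 CPM in E1KO and 1157 to 1235 CPM in E1WT libraries. Cdc6, which licenses replication origins, had 14.5 ± 1.47 CPM in E1KO and 7.20 ± 0.342 CPM in E1WT libraries (log2 fold 1.01 ± 0.10, adjusted p = 5.36e-05), and the others named by the rule were Rrm1, Mcm7 and Ccna2 at log2 folds of 0.50, 0.51 and 0.71. Markers of other cells were called in both directions, where 12.2% of all tested genes were higher and 11.1% lower. Of 11 tested monocyte and macrophage markers 7 were higher (63.6%) and 1, C1qb, was lower (9.09%). Of 11 dendritic cell markers 8 were higher (72.7%), of 8 NK cell markers 4 (50%), and of 7 erythroid markers 5 (71.4%). Of 9 neutrophil markers 1 was higher (11.1%) and 3 were lower (33.3%), and of 10 B cell markers 2 were higher (20%) and 1 lower (10%). Of 7 plasma cell markers 1 was higher (14.3%), and of 2 CD8 T cell markers 1 was lower (50%). Of 9 naive CD4+ T cell markers, 1 was higher (11.1%) and 3 were lower (33.3%). The summed dendritic cell markers were 609 to 697 CPM in E1KO and 470 to 563 CPM in E1WT libraries. The part of cycling cells, of these cell types and of the sex of the mice in the translation factor results was not tested. The 11 called factor genes are all autosomal.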

How the data were processed

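The authors deposited 1 table of raw read counts per library, with whole numbers for 24421 gene symbols. Per the submitters' processing notes, the tools were TopHat2 2.1.0 and HTSeq 0.9.1 and the build mm10. Annotation, strand setting and filters: not given in the sources used here. Another 5 rows per file hold reads given to no gene. They were left out and made up 28.2% to 37.0% of a file. One of these rows holds multiply aligned reads, so part of the reads of near-identical genes is missing from their counts.

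The groups follow the sample titles, 4 against 4. Counts were fitted with edgeR 4.0.16 in R 4.3.3 (TMM scaling, the default filter with a count minimum of 10 and a total of 15, quasi-likelihood test), with Benjamini-Hochberg adjustment over all 13333 tested genes at 0.05. Alternatives were DESeq2 1.42.0, its size factors, limma-voom in limma 3.58.1, no filter, a filter of 1 CPM in 4 libraries, the replicate number as a block, libraries left out, removal of an exon-length trend and autosomal genes. Exon lengths and positions come from GENCODE M21 on GRCm38, where 23376 symbols matched by name, 670 by an older symbol and 375 did not. Exons of 14 of the 58 genes overlap those of another counted gene, and without a stated strand their reads cannot be told apart. Promoter windows are from RefSeq. Figures were drawn with matplotlib 3.10.9 in Python 3.11.15.

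Genes named in full are every called member, for complexes without one the 2 smallest p, the members on either side of the threshold, a set of core factors, and up to 4 called genes of each list by p; other members, Atf4, Ddit3, Rptor, Tsc1, the S6 kinase genes, C1qb and the MYC genes were picked with their values in view. The members and lists were chosen with earlier results of these data known.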

Additional observations from a re-analysis of the deposited data

Results flagged for a closer look

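Among 94 sets of 4 libraries of a title, over the 47 genes named by rule, 2 held a library whose gap to the nearest other one took up more of the range than Dixon's critical value for 4 samples. Chance alone marks about 1 in 20 such sets. Eif4e3, a cap-binding protein gene, had 15.33 CPM in E1WT 4 against 19.02 to 19.34 CPM in the other E1WT libraries, a gap of 0.919 of the range. Eif5 had 385.2 CPM in E1WT 2 against 376.0 to 376.7 CPM in the other E1WT libraries, a gap of 0.923 of the range.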

How the results depend on the processing

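Over 17 alternative settings, single genes named by the rule gave 797 values, of which 715 kept direction and side of the threshold, 60 lost the call, 18 gained it and 4 reversed sign. Eif4ebp1, Eif4g3, Eef2k, Eif4e and Eif2b5 kept their calls in all 17. The number of factor genes called higher was 10 as reported, 5 with the replicate block and 6 to 12 when single libraries were left out. The number called lower was 1 as reported, 3 with DESeq2 size factors, the DESeq2 test or autosomal genes, 2 with the exon-length trend removed or with E1KO 1 and E1WT 4 both left out, and 1 to 3 without single libraries. The median log2 fold was 0.05 to 0.11 in all 17. The reversals were those of Eef1a1 without E1KO 3 (range -0.053 to 0.012 over single libraries left out) and of Eef2 (range -0.037 to 0.115, and -0.0025 with the length trend removed).

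For the lists, the block gave 1 called eIF2 kinase or phosphatase gene, 0 termination factors and 0 mitochondrial factors. Removing the length trend gave 5 poly(A)-binding and 2 termination genes, the DESeq2 test 2 termination genes, and no filter, the filter of 1 CPM or autosomal genes 0 termination genes. Mitochondrial factors were 1 with no filter and 1 without E1KO 1 and E1WT 4. Ranges without single libraries were 1 to 3 eIF2 kinase, 0 to 1 termination, 1 to 3 hypusine, 5 to 9 mTORC1 and 0 to 2 mitochondrial genes. The cause of these changes was not tested. The counts of ATF4 list genes (7 to 9) and cell cycle genes (14 to 15) moved little.

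Libraries of the same number did not deviate together (correlations of -0.00, -0.07, -0.03 and -0.17), and no library correlated best with its own number. These correlations cannot tell whether libraries of the same number were handled together. The block result (5 rises, 1 fall) therefore rests only on the replicate numbers of the titles. At the median standard error of 0.07, small folds lie near the limit of detection with 4 libraries per title.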
